A study of Homo sapiens with 6 samples.

Results

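The genes described here encode the NF-kappaB transcription factor subunits and the proteins that hold them back. They were chosen by symbol, 10 in all: NFKB1, NFKB2, REL, RELA, RELB, NFKBIA, NFKBIE, NFKBIZ, TNFAIP3 and BIRC3. Every probe set whose platform symbol was one of these was taken, which gave 15 probe sets for 9 genes, of 49293 probe sets and 18239 genes tested. The expression of BIRC3, a ubiquitin ligase of the pathway, was not analysed here. The samples were MV4;11 cells, an established human leukemia line with a rearranged MLL gene. They received either 4 µM MI-389, which the labels call an inhibitor of the binding of menin to MLL, or DMSO alone. Both groups were kept for 6 days in 0.25% DMSO, with fresh medium, compound or solvent on day 3, and each held 3 arrays. The comparison asks how transcripts of an MLL leukemia line differ once menin is kept from MLL. The samples come from a single line, and the labels name the replicates biological without saying how cultures were separated, so p-values measure the spread between these arrays, which may be partly technical.

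NF-kappaB factors are dimers. RELA, REL and RELB carry an activation domain, whereas NFKB1 and NFKB2 encode precursors that are processed to the DNA-binding partners p50 and p52. In resting cells the IkappaB proteins, among them those of NFKBIA and NFKBIE, keep the dimers in the cytoplasm until the IkappaB kinase marks them for destruction. The genes NFKBIA and TNFAIP3 are themselves NF-kappaB targets in many cells, and their products close a negative feedback. In monocytes the pathway drives cytokine, chemokine and survival genes.

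Values are log2 signals per probe set, and differences are MI-389 minus DMSO. "Rose" and "fell" refer to an adjusted p under 0.05 in limma, with Benjamini-Hochberg adjustment over all 18239 genes, or over all 49293 probe sets where a single probe set is named. A gene is represented by its probe set with the highest mean over the 6 arrays. As a guide to background, 22 control probe sets of nonspecific sequence reached at most 5.49 on any array, with the control of the highest GC content left out. Their mean was 3.54 with DMSO and 3.58 with MI-389, so 5.49 is an upper limit and not a typical background value. Signals under 5.49 are described here as in the background range. Of all genes tested, 9311 had both group means under 5.49. The arrays correlated at 0.997 to 0.998 within groups and at 0.979 to 0.981 between them, across probe sets, which are not independent replicates. The hybridisation spike-ins averaged 8.99 to 9.08 on the DMSO arrays and 9.26 to 9.36 on the MI-389 arrays, a difference of 0.25. Centring the arrays on them moves the median of all genes from 0.018 to -0.23 and the share of higher genes among those called from 53.9% to 11.2%. What the offset reflects was not tested.

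The 9 genes did not move as a block. With MI-389, 4 rose (NFKBIZ, REL, NFKBIA and NFKBIE) and 5 fell (TNFAIP3, RELB, NFKB1, NFKB2 and RELA), so that all 9 were called. Over all genes 34.1% were called, 18.4% higher and 15.7% lower. Both group means were under 5.49 in 1 of the 9 (NFKB2) but in 9311 of all 18239 genes. The comparison is therefore not between genes of like signal. In each of the 9 the 3 arrays of one group lay entirely above the 3 of the other, which held for 45.3% of all genes. The sizes were unequal. NFKBIZ and TNFAIP3 changed more than 3-fold, and NFKB1, NFKB2, RELA and NFKBIE by 0.33 or less on the log2 scale. At the level of single probe sets 7 of 15 rose and 6 fell, against 14% and 14% of all probe sets (28% in either direction). Both group means were under 5.49 in 3 of the 15 but in 30383 of all 49293 probe sets, so these are not of like signal either. The groups did not overlap in 13 of the 15, as in 40.4% of all probe sets. The 2 that were not called both belong to RELA.

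**Figure D1:**
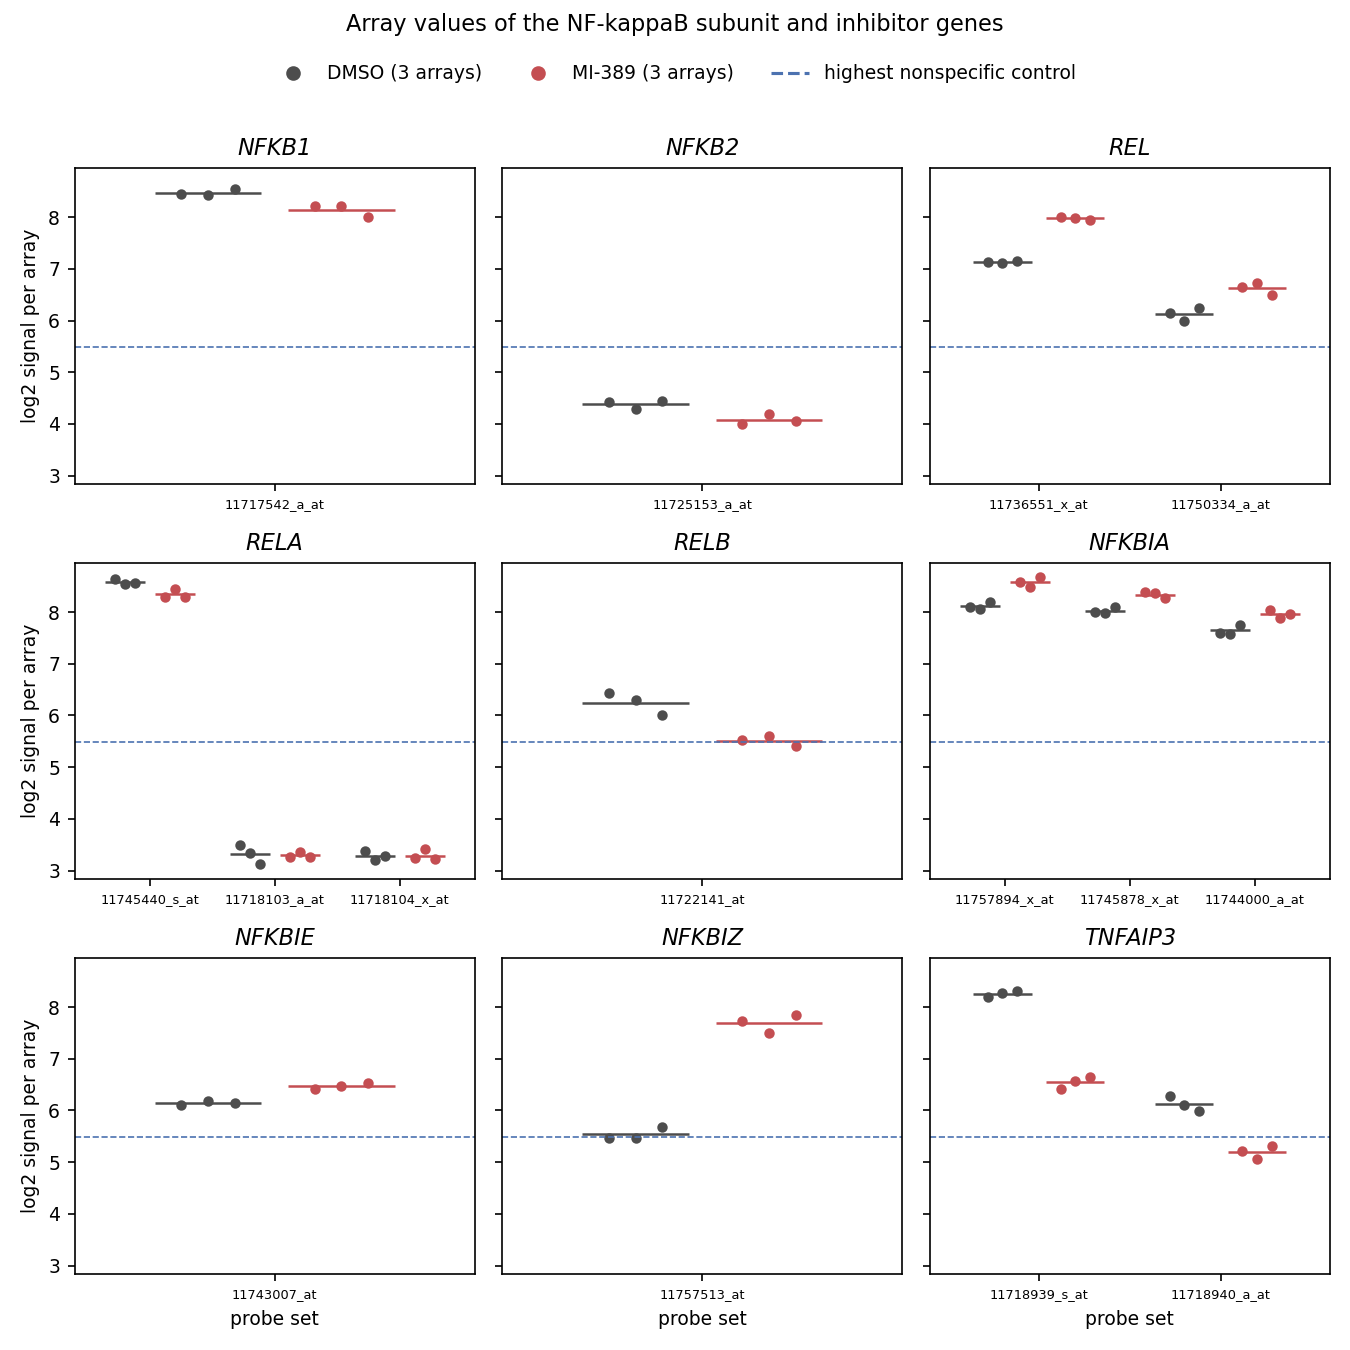
Log2 signal on each of the 6 arrays for the 15 probe sets of the 9 genes, with DMSO in grey and MI-389 in red; points are arrays, short lines group means, and the dashed line the highest nonspecific control value of 5.49. NFKBIZ rises from close to the dashed line to 7.69, TNFAIP3 drops in both of its probe sets, and NFKB2 and 2 of the 3 RELA probe sets lie under the line. REL rises in both probe sets, and RELB drops to about the line. The shifts of NFKB1, NFKBIA, NFKBIE and the bright RELA probe set are 0.46 or less in size.

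Among the subunits, REL, which encodes c-Rel, was the one that rose. Its probe set 11736551_x_at gave 7.14, 7.12 and 7.14 on the DMSO arrays and 8.0, 7.97 and 7.95 on the MI-389 arrays. The MI-389 arrays were all higher, by at least 0.80 between the closest arrays of the groups, while the SD within a group was 0.03 or less. The difference was 0.84 (SE 0.05, adjusted p = 8.1e-07), or 1.79-fold. The second probe set of REL, 11750334_a_at, gave 6.15, 5.99 and 6.23 with DMSO against 6.65, 6.72 and 6.49 with MI-389. It too had all MI-389 arrays above all DMSO arrays, with a smaller difference of 0.49 (SE 0.08, adjusted p = 0.00114).

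RELB encodes the subunit that pairs mainly with p52 in the non-canonical branch of the pathway. It gave 6.43, 6.30 and 6.01 with DMSO and 5.53, 5.60 and 5.41 with MI-389. The MI-389 arrays were all lower and lay at the level of the brightest nonspecific controls, and the DMSO arrays spread more (SD 0.22) than those of any other member. The difference was -0.73 (SE 0.10, adjusted p = 2.7e-04). NFKB2, the precursor of p52, gave 4.43, 4.28 and 4.45 with DMSO and 3.99, 4.19 and 4.05 with MI-389. All 6 values were under 5.49, so the call (-0.31, SE 0.07, adjusted p = 0.00663) is of a signal in the background range and no fold is given.

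The subunits of the classical dimer, p50 with RELA, differed little. NFKB1 gave 8.45, 8.43 and 8.54 with DMSO and 8.21, 8.22 and 8.01 with MI-389. Its MI-389 arrays were all lower, and the difference was -0.33 (SE 0.07, adjusted p = 0.00425), or 1.25-fold. RELA gave 8.64, 8.55 and 8.56 against 8.30, 8.44 and 8.28 in its bright probe set, 11745440_s_at. The groups were 0.11 apart at their closest arrays, and the difference was -0.24 (SE 0.06, adjusted p = 0.0122), the smallest of the 9 genes. This call is not firm: without DMSO replicate 1 the difference was -0.21 with an adjusted p of 0.0533, and with the mean of its 3 probe sets it was -0.086 with an adjusted p of 0.345. The other RELA probe sets, 11718103_a_at and 11718104_x_at, stayed between 3.12 and 3.50 on every array, in the range of the nonspecific controls, with differences of -0.02 (95% interval -0.22 to 0.18) and 0.0044 (95% interval -0.16 to 0.17).

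NFKBIA encodes IkappaB-alpha, the inhibitor that is degraded and made anew in each round of signalling. Its brightest probe set, 11757894_x_at, gave 8.11, 8.05 and 8.20 with DMSO and 8.57, 8.49 and 8.68 with MI-389. The MI-389 arrays were all higher, with a difference of 0.46 (SE 0.07, adjusted p = 3.8e-04), or 1.38-fold. The probe sets 11745878_x_at and 11744000_a_at differed by 0.32 each (SE 0.06 and 0.07, adjusted p = 0.00319 and 0.00502), again without overlap of the groups, so that the 3 probe sets of this gene moved alike. Under the spike-in centring the 3 differences were 0.21, 0.064 and 0.069, and the last 2 were not called.

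NFKBIE encodes IkappaB-epsilon, a second cytoplasmic inhibitor. It gave 6.11, 6.18 and 6.15 with DMSO and 6.41, 6.47 and 6.54 with MI-389. The groups were 0.23 apart at their closest arrays, and the difference was 0.32 (SE 0.06, adjusted p = 0.00135). With the centring on the spike-ins it was 0.072 and not called (adjusted p = 0.423).

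NFKBIZ encodes IkappaB-zeta, an IkappaB-like protein of the nucleus that works with p50 at secondary response genes and can activate as well as inhibit. It had the largest difference of the 9. The DMSO arrays gave 5.47, 5.47 and 5.67, close to the brightest nonspecific controls, and the MI-389 arrays 7.74, 7.49 and 7.85. The lowest MI-389 array was 1.82 above the highest DMSO array. The difference was 2.15 (SE 0.10, 95% interval 1.94 to 2.37, adjusted p = 7.8e-08), or 4.45-fold, and it was the 89th largest rise of the 18239 genes. Since the DMSO mean of 5.54 is near background, where values may be compressed, the fold may be understated.

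TNFAIP3 encodes A20, a ubiquitin-editing enzyme that shuts off signalling from TNF and Toll-like receptors. Its brighter probe set, 11718939_s_at, gave 8.20, 8.27 and 8.30 with DMSO and 6.41, 6.58 and 6.64 with MI-389. The MI-389 arrays were all at least 1.56 below the DMSO arrays. The difference was -1.72 (SE 0.07, 95% interval -1.87 to -1.56, adjusted p = 4.8e-08), a 3.28-fold lower signal and the 107th largest fall of the 18239 genes. The second probe set, 11718940_a_at, gave 6.29, 6.11 and 5.99 against 5.22, 5.06 and 5.31, a difference of -0.93 (SE 0.09, adjusted p = 2.7e-05). Its MI-389 mean lay under 5.49, and set against that level the signal was at least 1.56-fold lower. TNFAIP3 and NFKBIA, the textbook pair of feedback genes, thus differed in opposite directions in all 5 of their probe sets.

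**Figure D2:**
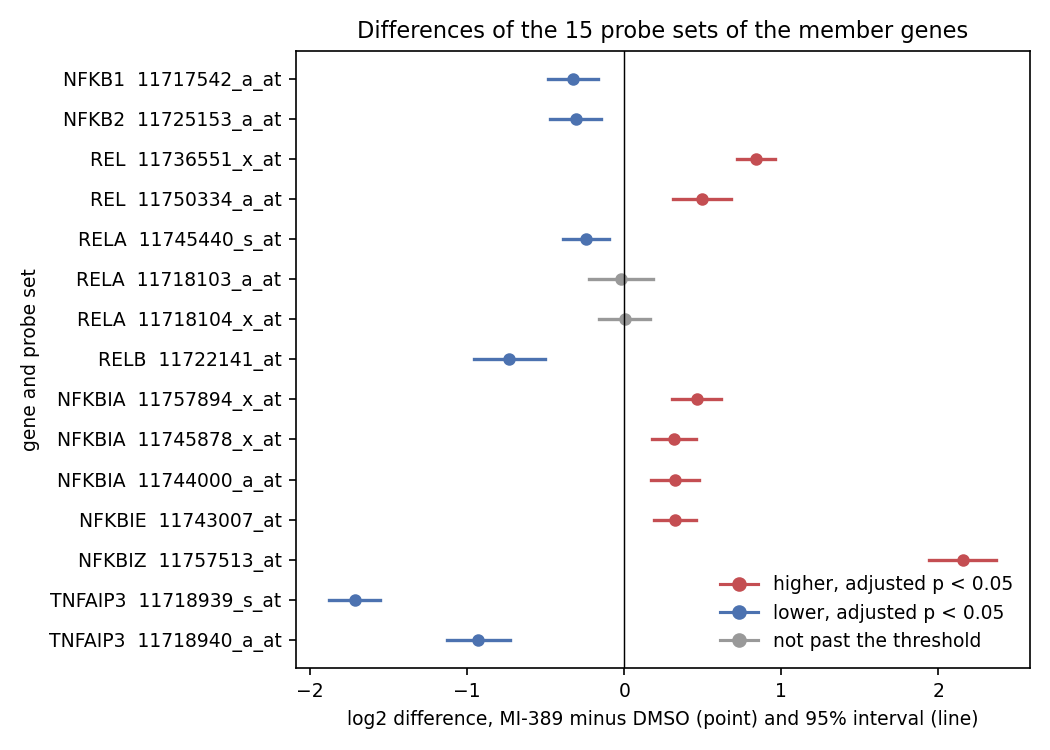
Log2 difference, MI-389 minus DMSO, of the 15 probe sets (points) with its 95% interval (lines), in red where higher, in blue where lower and in grey where not past the threshold. Probe sets of the same gene lie on the same side for REL, NFKBIA and TNFAIP3, and the 2 grey RELA probe sets straddle 0.

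Whether these genes carry binding motifs for the factor near their starts was read from RefSeq promoter windows (GRCh38.p14), which were given for 8 of the 10 members, not for RELB and NFKBIE. The 250 bases before each annotated start were searched on both strands for the kappaB consensus. The windows of 7 of these 8 members held it at least once (9 of 13 windows, several members having more than 1 start), as did 9.96% of all 35116 windows. The windows of RELA held no match to the consensus. Windows are shown for the 4 members with the largest differences among those that had one, since these differed in direction. For NFKBIZ the window of the upstream start is given. Capitals mark the matches, and a match on the opposite strand reads from its other end.
NFKBIZ, chr3:101827740-101827989, plus strand: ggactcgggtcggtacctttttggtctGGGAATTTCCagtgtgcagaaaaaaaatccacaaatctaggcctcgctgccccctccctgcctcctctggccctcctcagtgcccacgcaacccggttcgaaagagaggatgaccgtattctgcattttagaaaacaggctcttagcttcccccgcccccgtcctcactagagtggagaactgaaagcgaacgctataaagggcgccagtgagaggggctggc
TNFAIP3, chr6:137867009-137867258, plus strand: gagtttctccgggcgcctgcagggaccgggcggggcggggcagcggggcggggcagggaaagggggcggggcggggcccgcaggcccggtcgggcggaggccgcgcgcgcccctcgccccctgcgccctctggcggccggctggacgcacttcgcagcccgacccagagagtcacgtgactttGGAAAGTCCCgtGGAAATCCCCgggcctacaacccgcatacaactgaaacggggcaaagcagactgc
REL, chr2:60881324-60881573, plus strand: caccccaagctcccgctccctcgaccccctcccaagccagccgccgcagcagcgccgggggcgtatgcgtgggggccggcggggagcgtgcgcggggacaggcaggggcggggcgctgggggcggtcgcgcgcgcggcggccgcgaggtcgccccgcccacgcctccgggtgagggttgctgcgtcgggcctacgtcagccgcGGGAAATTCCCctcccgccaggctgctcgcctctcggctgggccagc
NFKBIA, chr14:35404750-35404999, minus strand: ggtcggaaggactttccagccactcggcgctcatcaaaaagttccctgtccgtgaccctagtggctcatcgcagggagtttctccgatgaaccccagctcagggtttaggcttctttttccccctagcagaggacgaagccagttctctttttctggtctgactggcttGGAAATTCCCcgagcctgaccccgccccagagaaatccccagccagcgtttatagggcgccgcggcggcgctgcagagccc
In NFKBIZ the match GGGAATTTCC begins 223 bases before the start, and the window of its downstream start holds GGGGTTTCCC, 239 bases before that start. TNFAIP3 has a pair of matches, GGAAAGTCCC and GGAAATCCCC, which begin 67 and 55 bases before the start. In REL a pair of overlapping matches, GGGAAATTCC and GGAAATTCCC, lies 47 bases before it, and in NFKBIA the match GGAAATTCCC lies 81 bases before it. The windows of NFKB1 and NFKB2 held matches too, GGGAATTTCC 49 bases before the start in NFKB1 and 5 matches over 2 starts in NFKB2. That of BIRC3 held GGAAATCCCC and GGAGTTCCCC, which begin 199 and 135 bases before its start. Of the measured members with a match, 3 rose (NFKBIZ, REL and NFKBIA) and 3 fell (TNFAIP3, NFKB1 and NFKB2). A match is a run of letters, and no binding was measured.

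The rest of the pathway was described by 5 lists of 116 genes, of which 110 were measured. The lists were composed from general knowledge of the pathway, but with earlier results of these data known. Of these 110, 23 rose and 28 fell (46.4%, against 34.1% of all genes). Both group means were under 5.49 in 39 of the 110 and in 9311 of all 18239 genes. The 46.4% and 34.1% are therefore not shares of genes of like signal. Calls in that background range are counted too: MAP3K14, BTRC, ZC3H12A and MMP9 as higher, and ANKRD42, TBKBP1, OTUD7B, ICAM1, IER3 and SDC4 as lower. The median difference was -0.03, beside 0.018 for all genes. With the spike-in centring the counts were 13 and 70. The median of the 9 members themselves was -0.24, with 4 higher and 5 lower.

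Other members of the IkappaB family and related inhibitors differed in both directions. Of 9 measured, 3 rose and 5 fell (88.9% called, against 34.1% of all genes, median -0.20). Both group means were under 5.49 in 2 of the 9, so these are not shares of genes of like signal. The falls numbered 2 with unsuffixed probe sets preferred. NFKBIL1, an IkappaB-like gene, fell by 1.01 and NKIRAS2, which stabilises IkappaB proteins, fell by 0.95, in 4 of its 4 probe sets. NFKBID, the nuclear IkappaB-NS, rose by 0.48, in 1 of 2 probe sets. BCL3, a nuclear IkappaB that binds p50 and p52, differed by -0.55 on its brightest probe set (SE 0.06, adjusted p = 7.2e-05). That was the 1 of its 4 probe sets to be called, and with unsuffixed probe sets preferred it differed by 0.071 and was not called. PDLIM2, a ubiquitin ligase for RELA, differed by 0.89 on its brightest probe set and by -0.0016 with unsuffixed probe sets preferred. COMMD1, which promotes the turnover of RELA, rose by 0.34, and by 0.09, not called, with the spike-in centring.

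The list of the IkappaB kinase complex, the kinases upstream of it and their adaptors had 16 measured genes. Of these, 6 rose and 3 fell (56.25% called, against 34.1% of all genes, median 0.06), and 3 and 8 with the spike-in centring. Both group means were under 5.49 in 4 of the 16, so here too the shares are not of genes of like signal. The IKK-related kinases IKBKE and TBK1 rose by 0.57 and 0.45, each in 2 of 2 probe sets. MAP3K3, an activator of the IkappaB kinase, rose by 0.74 in 2 of 3 probe sets, and by 0.38 at the lowest under the alternatives. RIPK2, the kinase downstream of NOD receptors, fell by 1.12, from 7.94 to 6.82. TANK, an adaptor of TBK1, fell by 0.27, in 2 of 4 probe sets. The IkappaB kinase has a pair of catalytic subunits, CHUK and IKBKB, which are named here although chosen after their values were seen. CHUK rose by 0.27 (SE 0.06, adjusted p = 0.00463) in its 1 probe set, and differed by 0.015, not called (adjusted p = 0.867), with the spike-in centring. IKBKB differed by -0.02 (95% interval -0.18 to 0.15, adjusted p = 0.893), and by -0.27 (adjusted p = 0.012) with the spike-in centring. MAP3K14, which starts the non-canonical branch and counts among the 6 that rose, was at 3.85 and 4.19, under the nonspecific level.

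Of 25 adaptors and ubiquitin ligases 5 rose and 8 fell (52% called, against 34.1% of all genes, median -0.08), and 2 and 18 with the spike-in centring. Both group means were under 5.49 in 6 of the 25, so these shares are again not of genes of like signal. The number that rose was 3 in the fits without DMSO replicate 2 or DMSO replicate 3, and likewise with a common median or the replicate block. RBCK1, a subunit of the linear ubiquitin ligase complex, fell by 1.12, from 8.59 to 7.47, in 3 of its 4 probe sets. Under the alternatives its difference ranged from -1.38 to -0.60. IRAK1, a kinase of Toll-like receptor signalling, fell by 0.72, and TRAF3, which restrains the non-canonical branch, by 0.61 in 3 of 3 probe sets. CUL1, the scaffold of the ligase that degrades IkappaB, rose by 0.56 in 2 of 2 probe sets. MYD88, the adaptor of Toll-like receptors, rose by 0.55, with 2 of 5 probe sets called, and by 0.18 with the mean of its probe sets. BIRC2, the close relative of BIRC3 and also chosen after its value was seen, differed by -0.07 (95% interval -0.20 to 0.06, adjusted p = 0.421), and by -0.32 with the spike-in centring (adjusted p = 0.00299).

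Ubiquitin-editing brakes that act beside A20 counted 4 higher and 3 lower of 14 (50% called, against 34.1% of all genes, median 0.05). With the spike-in centring they counted 2 and 7. Both group means were under 5.49 in 3 of the 14, so the shares are not of genes of like signal. IRAK3, a kinase-dead brake on Toll-like receptors, rose by 0.59 in 4 of 4 probe sets, and OTULIN, which removes linear ubiquitin, by 0.55 in 2 of 4, or 0.25 with the mean of its probe sets. The A20-binding proteins TNIP2 and TNIP1 fell by 0.46 and 0.32, the latter in 3 of 8 probe sets. CYLD, a deubiquitinase, differed by 0.17 (adjusted p = 0.0279), with 1 of 4 probe sets called higher and 1 lower, and by -0.08 with the spike-in centring or the mean of its probe sets. It counts among the 4 higher, but was not called with the replicate block (adjusted p = 0.0694) or in 5 of the 6 fits that left out 1 array, all but that without MI-389 replicate 3 (adjusted p = 0.0677 to 0.0869).

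Of 46 further NF-kappaB target genes 5 rose and 9 fell (30.4% called, against 34.1% of all genes, median -0.06), and 24 had both group means under 5.49. With the spike-in centring 32 of them were lower. The largest differences ran both ways. The chemokine gene CXCL8 gave 4.53, 4.44 and 4.27 with DMSO and 7.71, 7.52 and 7.78 with MI-389, at least 4.53-fold higher when set against 5.49, and rose in 3 of 3 probe sets. TNFAIP8, an apoptosis regulator, rose by 2.42, at least 5.08-fold against the same level, and TNFAIP2 by 1.75 in 2 of 5 probe sets. The sizes depend on the processing. Under the alternatives the lowest differences were 0.42 for TNFAIP2, 1.78 for TNFAIP8 and 1.74 for CXCL8, all still called. The chemokine gene CCL5 gave 10.37, 10.34 and 10.34 with DMSO and 7.18, 7.46 and 7.19 with MI-389. Its difference was -3.07 (SE 0.08, adjusted p = 2.0e-09), or 8.41-fold. CCL2 gave 7.59, 7.82 and 6.84 against 4.00, 4.26 and 4.31, at least 3.82-fold lower when set against 5.49, and TNF, the cytokine that A20 restrains, went from 6.79 to 5.03, at least 2.47-fold lower. CFLAR, an inhibitor of death receptor signalling, rose by 0.50, with 8 of 9 probe sets called higher, and differed by 0.0054 on the unsuffixed one.

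**Figure D3:**
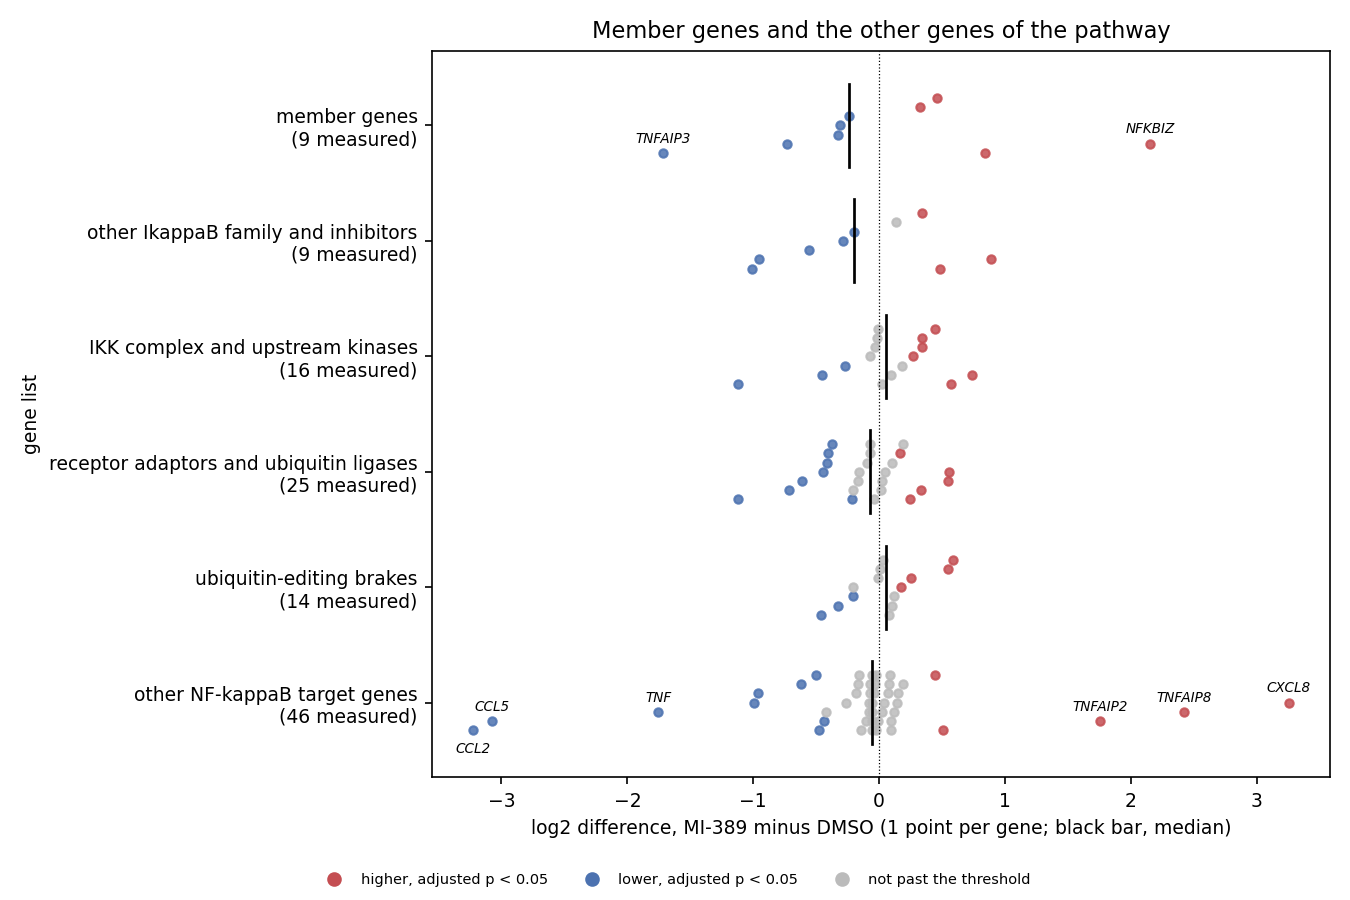
Log2 difference, MI-389 minus DMSO, of each measured gene of the 9 members and of the 5 pathway lists (1 point per gene, black bar at the median), in red where higher, in blue where lower and in grey where not past the threshold. Every row holds genes on both sides of 0, and the widest spread, from -3.23 (CCL2) to 3.25 (CXCL8), is among the target genes.

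The identity of the cells was read from marker lists. Of 6 measured markers of the MV4;11 line, PTPRC, FLT3, CSF2RA and KMT2A lay above 5.49 in both groups, and the myeloid factor SPI1 and CD38 lay under it in both. All 6 were called: FLT3, a receptor kinase, fell by 1.41 (11.01 to 9.59), SPI1 and CD38 were lower, and CSF2RA, KMT2A and PTPRC rose by 0.56, 0.51 and 0.34. Markers of monocytes and macrophages also shifted: 13 of 16 rose and 0 fell (median 0.73). Over all genes the shares were 18.4% higher and 15.7% lower (34.1% in either direction), to be set beside each marker count given here. The summed log2 signal of these 16 markers was 88.8 to 89.7 on the DMSO arrays and 117.4 to 118.8 on the MI-389 arrays. Among these, named after their values were seen, LYZ went from 11.07 to 13.13 and CSF1R from 6.19 to 7.85. S100A8 went from 4.84 to 10.32, S100A9 from 3.18 to 8.66, KLF4 from 5.28 to 9.22, CD36 from 4.65 to 8.85 and ITGAM from 4.93 to 7.71. Set against 5.49, these 5 were at least 28.5-fold, 9.03-fold, 13.3-fold, 10.3-fold and 4.68-fold higher with MI-389. Of the 16, 6 had both group means under 5.49. CD14 (3.59 and 4.30, DMSO and MI-389 means), CD163 (3.70 and 3.93) and FCN1 (3.82 and 4.14) count among the 13 that rose. FCGR3A (3.26 and 3.20), VCAN and MSR1 were not called. The part of the shift in these markers in the members' differences was not tested. Of 8 T and NK cell markers 2 rose and 7 had both means under 5.49, with CD3E at 3.97 and 4.01, and NKG7 was the one above it. Of 6 B cell markers 5 were under that level in both groups, with MS4A1 at 3.92 and 3.95, and PAX5 was the one above it. All 5 erythroid and platelet markers and 8 of 9 stromal and epithelial markers were under it too. In RNA from whole cultures, fewer cells that carry a transcript and less of it per cell cannot be told apart.

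The genes most like NFKBIZ were sought among all others by the root mean square distance of the log2 values over the 6 arrays, each gene centred on its own mean. The 5 nearest were ACSM3 (0.06), TFEC (0.09), SNX10 (0.09), THBD (0.11) and JUN (0.11), with differences between 2.03 and 2.23. The DMSO means of SNX10 (5.45), THBD (5.47) and JUN (4.40) were under 5.49, so their differences and distances rest partly on signals in the background range. TFEC, a transcription factor of macrophages, went from 7.10 to 9.13, and ACSM3 from 5.90 to 7.96. With 5.49 standing for the dimmer group, the MI-389 signal of SNX10 was higher by at least 4.57-fold, that of THBD, which encodes thrombomodulin, by at least 4.04-fold, and that of JUN, a subunit of AP-1, by at least 2.20-fold. SNX10 was called in 3 of its 5 probe sets, and with their mean its difference was 0.70. Since the samples fall into 2 groups, nearness here means a rise of like size.

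**Figure D4:**
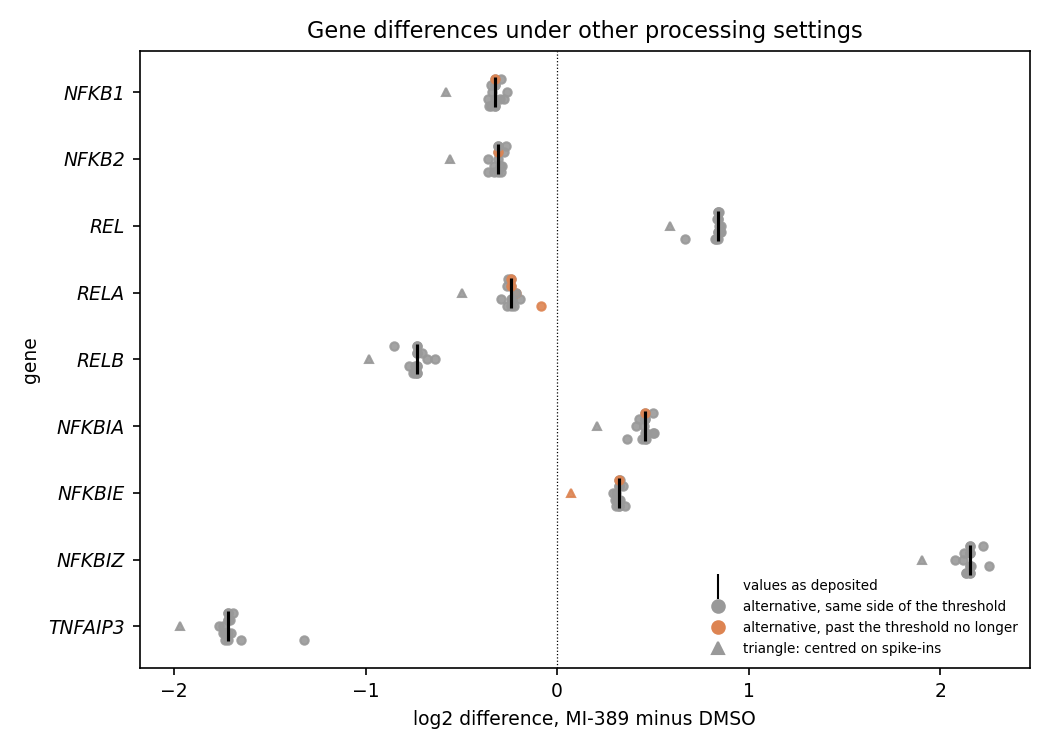
Log2 difference of the 9 genes as deposited (black bar) and under up to 17 alternatives each (points; triangles, arrays centred on the spike-ins), in orange where the gene was no longer past the threshold. No point crosses 0, the triangle of NFKBIE lies at 0.072, and the orange point of RELA nearest 0, at -0.086, is the mean of its 3 probe sets. Alternatives that leave the difference unchanged have their points at the black bar and could not cross 0.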

How the data were processed

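RNA of 6 MV4;11 samples was hybridised to Affymetrix arrays after 3′ labelling. The deposited values are log2 signals per probe set, 1 column per array. RMA and limma stand without versions or settings in the submitters' processing notes. RMA can compress dim values, so folds of dim genes may be understated, which was not tested. Array medians were 4.47 to 4.49. Arrays have no sequencing depth; their number limits the precision.

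Of 49386 probe sets, 93 controls were left out. Symbols of the platform annotation were updated by gene ID through RefSeq (GRCh38.p14). Of the rest, 45253 probe sets had 1 gene, 1327 several and 2713 none, and 45172 IDs matched. MI-389 was compared with DMSO by limma 3.58.1 in R 4.3.3 (lmFit, eBayes, two-sided, no covariates), tested on simulated data. Alternatives were 3 rescalings, a filter at the 40th percentile, a replicate block, trend and robust variance, array weights, each array left out, other probe set rules, a threshold of 0.01 and treat at a fold of 1.2. Named genes were all members, up to 4 rising and 4 falling called genes per list, and the 5 nearest NFKBIZ; of the list genes, some dim or fragile ones are not described in the report. The members and lists were chosen with earlier results of these data known.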

Additional observations from a re-analysis of the deposited data

How the results depend on the processing

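Over the 9 member genes, 143 of 152 values under the alternatives kept direction and side of the threshold. Of the others, 9 kept the direction and were no longer called, and 0 reversed. The filter of dim genes, replicate block, trend and robust variance, stricter threshold and treat leave a difference unchanged, so they could not reverse it. The same holds for the probe set rules in members with 1 probe set. Reversal was possible only under the rescalings, array weights, fits without an array and, with several probe sets, the probe set rules. Against a fold of 1.2 (limma treat), 2 members were higher and 2 lower (NFKBIZ, REL, TNFAIP3 and RELB), 2 and 3 probe sets, 2457 of all genes, 5346 of all probe sets, and 13 and 16 genes of the pathway lists. With the spike-in centring, which lowers every gene alike, 3 members were higher and 5 lower, 4 probe sets were higher, 12453 genes and 33091 probe sets were called, and the pathway lists counted 13 higher and 70 lower. Leaving out 1 array, the members counted 4 higher and 4 to 5 lower, and all genes called 5216 to 6160. With the replicate number as a block, the members again counted 4 and 5, and 5725 genes were called. Same-numbered arrays deviated with correlations of -0.18, 0.026 and -0.11, so the numbers were not taken as pairs.

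Some called genes of the pathway lists reversed, in each case to a value that was not called. With unsuffixed probe sets preferred, BCL3 (-0.55) stood at 0.071, PDLIM2 (0.89) at -0.0016, ANKRD42 (-0.29) at 0.049 and CARD9 (-0.45) at 0.11. With the spike-in centring BCL10 (0.25) stood at -0.0062 and CYLD (0.17) at -0.079. CYLD stood at -0.081 with the mean of its probe sets. Of values that were not called, the RELA probe set 11718104_x_at (0.0044) stood at -0.014 with a common median, -0.0092 after quantile normalisation, -0.25 (called) with the spike-in centring, and between -0.057 and 0.047 when an array was left out. The RELA probe set 11718103_a_at ranged from -0.12 to 0.069 when an array was left out. IKBKB (-0.02) was 0.0086 after quantile normalisation, 0.055 with the mean of its probe sets, and -0.082 to 0.051 when an array was left out. The cause of each was not tested. Signals under 5.49, such as those of NFKB2, are limited by background.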

Other observations

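The kappaB consensus in a promoter window said little about direction over the whole array. Of 14492 measured genes with a RefSeq window, 2107 held the consensus in the 250 bases before a start. Of these, 19.8% rose and 17.4% fell with MI-389, with a median difference of 0.016. Of the 12385 genes without it, 19.2% rose and 16% fell, with a median of 0.018. These shares are a description of the genes on this array, and no test was made.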
